A study of Homo sapiens with 6 samples.

Results

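YAP1 (the coactivator YAP), WWTR1 (its relative TAZ), TEAD1 (a DNA-binding partner of both) and 7 of their usual target genes were followed in ARPE-19, an established human line derived from the pigment epithelium of the retina. The genes were CCN1, CCN2, ANKRD1, AMOTL2, NUAK2, LATS2 and AJUBA, chosen by symbol, and all 10 were found among 17945 genes with a value in every library. Each of the 10 passed the filter on low values. The cells were wild type in both groups. The treated group received 320 nM cinobufagin for 24 h, a toad venom steroid of the bufadienolide class that inhibits the sodium pump, and the control group received DMSO for 24 h, with 3 libraries in each. Nothing in the labels says that the 3 libraries were grown separately, so a p-value here speaks only of the spread among these samples, and that spread may be technical. Levels are given as FPKM, the fragments of a gene per length of transcript and per mapped fragments of a library, as deposited by the authors.

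YAP and TAZ carry no DNA-binding domain of their own and act through the TEAD factors, which bind GGAATG and close variants of it. Kinases of the Hippo cascade, MST1 and MST2 and then LATS1 and LATS2, phosphorylate YAP and TAZ, which keeps them in the cytoplasm and marks them for degradation, so most of this control is on protein and is not read by a transcript level. Cell spreading and actin tension favour nuclear YAP and TAZ, and several targets, among them LATS2, AMOTL2 and AJUBA, act back on the pathway.

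The letters GGAATG stand upstream of several of these genes. RefSeq promoters (GRCh38.p14) were matched for 8 of the 10 genes, over 11 annotated starts, all but TEAD1 and CCN1. In the 250 bases before a start, 6 of these 8 genes held GGAATG on either strand (54.5% of their 11 windows), against 13.1% of the 9644 tested genes with a promoter (9.88% of 14183 windows). The windows of CCN2, ANKRD1, NUAK2 and AJUBA are shown because these genes hold the letters and had the 4 largest changes of the 10. They are chr6:131951373-131951622 on the minus strand for CCN2, chr10:90921088-90921337 on the minus strand for ANKRD1, chr1:205321746-205321995 on the minus strand for NUAK2 and chr14:22976843-22977092 on the minus strand for the downstream of the annotated AJUBA starts. Each runs 5′ to 3′ on the strand of its gene, its last base is the last before the start, and capitals mark GGAATG or its reverse complement CATTCC.
CCN2: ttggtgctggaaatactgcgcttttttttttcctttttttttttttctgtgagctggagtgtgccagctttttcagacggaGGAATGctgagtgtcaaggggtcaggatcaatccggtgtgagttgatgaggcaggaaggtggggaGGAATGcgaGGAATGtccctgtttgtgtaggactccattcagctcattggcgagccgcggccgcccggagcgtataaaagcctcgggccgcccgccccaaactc
ANKRD1: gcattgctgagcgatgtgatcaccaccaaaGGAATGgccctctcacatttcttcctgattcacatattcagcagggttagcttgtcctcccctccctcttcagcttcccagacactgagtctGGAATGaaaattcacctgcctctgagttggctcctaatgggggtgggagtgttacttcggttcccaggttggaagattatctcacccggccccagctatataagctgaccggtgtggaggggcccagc
NUAK2: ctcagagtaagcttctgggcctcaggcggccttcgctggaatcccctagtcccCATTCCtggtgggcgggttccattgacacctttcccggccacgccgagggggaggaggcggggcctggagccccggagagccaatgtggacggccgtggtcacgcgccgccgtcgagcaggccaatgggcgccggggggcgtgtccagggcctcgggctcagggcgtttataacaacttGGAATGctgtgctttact
AJUBA: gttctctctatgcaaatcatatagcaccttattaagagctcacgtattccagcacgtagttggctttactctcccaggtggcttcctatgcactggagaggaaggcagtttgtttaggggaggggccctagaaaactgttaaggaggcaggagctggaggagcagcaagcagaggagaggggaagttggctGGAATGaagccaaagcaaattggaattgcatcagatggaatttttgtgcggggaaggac
CCN2 held 3 copies, at -169, -104 and -95 from the start, ANKRD1 held 2, at -220 and -128, NUAK2 held 2, at -197 and -18, and AJUBA held 1, at -59. YAP1 and AMOTL2 held 1 copy each, and no window of WWTR1 or LATS2 had a match. A loose form of the AP-1 motif, TGANTCA with any base at N, was also searched on either strand. It was found in ANKRD1 at -195, as TGATTCA, clear of both GGAATG copies. No other of the 8 genes held it, against 5.63% of tested genes that did. The CArG box bound by SRF was found in 0 of 8, against 1.52%. A match describes letters and shows no binding.

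As background to all comparisons, 67.7% of the 11599 genes tested passed the test between cinobufagin and DMSO (limma, adjusted p under 0.05), 39.2% higher and 28.4% lower with cinobufagin, and the groups did not overlap in 70.8%. Summed FPKM was 534694 to 545499 in cinobufagin and 538039 to 560721 in DMSO libraries, and no source used here gives the read totals. Of the epithelial and RPE markers, keratins KRT8 and KRT18 and the eye factors MITF, OTX2 and PAX6 were at 42.7 FPKM or more in every library. The visual cycle genes RPE65 and RLBP1 were at or under 0.26 and TTR was at 0. On the same list, the epithelial genes EPCAM and CDH1 were at or under 0.09 FPKM, and LRAT, BEST1 and PMEL were between 0.91 and 2.23. The cadherin CDH2 was at 131.6 to 139.4 FPKM with cinobufagin and 93.0 to 97.6 with DMSO and rose. KRT8 and KRT18 fell and MITF, OTX2 and PAX6 rose, and of the 11 markers of that list tested 5 rose, 4 fell and 2 did not pass. Of the 8 markers of other cell types, 6 were found. Of those reported, PTPRC was at 0, PECAM1 and GFAP were at or under 0.08 FPKM, CD3E was at 0.38 to 0.68, and CD68, a lysosomal gene of macrophages that other cells also express, was at 78.8 to 79.8 with cinobufagin and 113 to 126 with DMSO and fell, a change whose part in the results was not tested. Fewer cells of a kind and less RNA per cell cannot be told apart in bulk samples.

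Between cinobufagin and DMSO the coactivators and TEAD1 differed by at most 1.18-fold in mean FPKM, while their target genes moved both ways. CCN2 was 2.25-fold higher, WWTR1 (1.18-fold) and CCN1 (1.14-fold) were higher, NUAK2 was 3.31-fold lower, AJUBA, ANKRD1 and AMOTL2 were lower, and YAP1, TEAD1 and LATS2 did not pass (ratios of mean FPKM, 3 libraries a group). In all 3 rose, 4 fell and 3 did not pass, against the 67.7% of all tested genes that passed, so 7 of 10 is near the background. The median log2 fold change of the 10 was 0.03, beside 0.06 over all genes tested. A change of 1 or more on the log2 scale was found for 2 of the 10, CCN2 and NUAK2, and for 4.29% of all genes tested. Every log2 value is on the scale of FPKM + 1, where the change of a low gene such as NUAK2 comes out too small.

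**Figure D1:**
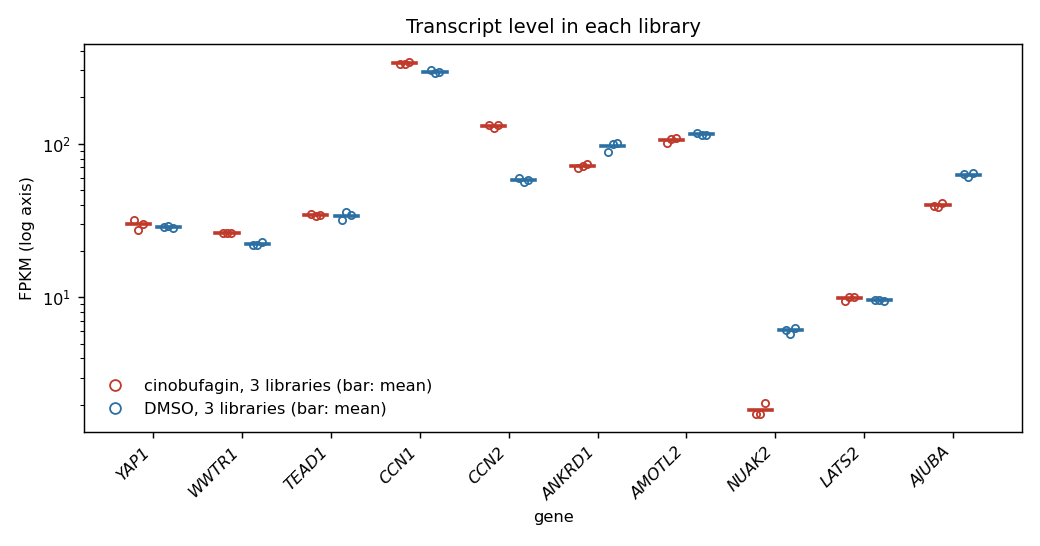
FPKM of the 10 genes (log axis) in each of the 3 cinobufagin (red) and 3 DMSO (blue) libraries, with bars at the group means. CCN2 lies at 126 to 133 FPKM in cinobufagin and 55.9 to 60.1 in DMSO libraries, while YAP1, TEAD1 and LATS2 overlap between the groups.

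The 10 genes spanned a wide range of levels on the per-length scale of FPKM. With cinobufagin the order was CCN1, CCN2, AMOTL2, ANKRD1, AJUBA, TEAD1, YAP1, WWTR1, LATS2 and NUAK2, and with DMSO it was CCN1, AMOTL2, ANKRD1, AJUBA, CCN2, TEAD1, YAP1, WWTR1, LATS2 and NUAK2. CCN2 was thus the second with cinobufagin and the fifth with DMSO. Neighbours in either order did not overlap in the values of their 3 libraries.

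YAP1 (gene ID 10413, chromosome 11, 102110461 to 102233423 on GRCh38) encodes the coactivator YAP. It had 32.1, 27.5 and 29.9 FPKM in cinobufagin libraries, against 28.9, 29.3 and 28.3 in DMSO libraries. The DMSO values lay inside the range of the cinobufagin values, and the difference did not pass (log2 fold change 0.05, 95% interval -0.08 to 0.17, limma adjusted p = 0.491). WWTR1 (gene ID 25937, chromosome 3, 149517235 to 149736714) encodes TAZ, which binds the same TEAD factors. It had 26.1, 26.2 and 26.4 FPKM in cinobufagin libraries, against 21.8, 21.8 and 22.9 in DMSO libraries. Every cinobufagin value lay above every DMSO value, and WWTR1 rose by 0.23 on the log2 scale (SE 0.05, limma adjusted p = 0.000752). The WWTR1 to YAP1 ratio of FPKM was 0.814, 0.951 and 0.881 in cinobufagin libraries, against 0.756, 0.746 and 0.808 in DMSO libraries. The groups did not overlap, and the exact two-sided permutation test on the log2 ratio gave p = 0.1, the smallest that 3 libraries against 3 allow. Summed YAP1 and WWTR1 came to 56.0 ± 2.29 FPKM with cinobufagin and 51.02 ± 0.255 with DMSO (SD, n = 3 each). Exons of both genes overlap an antisense gene in GENCODE 29 over 9.97% of the exon bases of YAP1 and 9.45% of those of WWTR1, and no source used here gives the strand setting of the counting, without which reads of a gene and its antisense partner cannot be told apart.

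TEAD1 (gene ID 7003, chromosome 11, 12674591 to 12944483) was the most abundant of the 4 TEAD genes in every library. It had 34.7, 34.0 and 34.5 FPKM in cinobufagin libraries, against 31.7, 36.0 and 34.5 in DMSO libraries. The groups overlapped and TEAD1 did not pass (log2 fold change 0.02, 95% interval -0.10 to 0.13, limma adjusted p = 0.792). The less abundant TEAD4 had 3.17, 4.32 and 3.42 FPKM in cinobufagin libraries, against 7.16, 7.57 and 6.96 in DMSO libraries. TEAD4 values did not overlap and it fell by 0.84 on the log2 scale (SE 0.09, limma adjusted p = 6.9e-06). TEAD2 fell by 0.55, at 4.34 ± 0.286 FPKM with cinobufagin and 6.83 ± 0.212 with DMSO (SD, n = 3 each, limma adjusted p = 2.04e-05). TEAD3 was at 5.38 ± 0.443 FPKM with cinobufagin and 5.04 ± 0.559 with DMSO and did not pass (limma adjusted p = 0.4). The makeup of the family therefore differed. TEAD1 took 73.9%, 69.6% and 72.7% of the summed TEAD FPKM in cinobufagin libraries, against 62.9%, 65.5% and 63.7% in DMSO libraries. The shares did not overlap and differed by 8.02 percentage points (exact two-sided permutation test, p = 0.1, the smallest possible here). The sum over the 4 genes was 47.8 ± 0.996 FPKM with cinobufagin and 53.2 ± 2.37 with DMSO (SD, n = 3 each).

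Among the vestigial-like cofactors, which bind TEAD factors without YAP, VGLL4 stood apart. VGLL4 competes with YAP for TEAD and acts as a repressor. It had 70.6, 65.4 and 65.9 FPKM in cinobufagin libraries, against 32.5, 32.5 and 31.2 in DMSO libraries. Its groups lay far apart, and it rose by 1.05 on the log2 scale (SE 0.05, limma adjusted p = 4.16e-09), the rank of 84 among 11599 genes by rise. VGLL4 came to 1.41 ± 0.0843 times the summed TEAD FPKM with cinobufagin and 0.605 ± 0.0351 times with DMSO (SD, n = 3 each). VGLL3, another TEAD cofactor, fell by 0.41 on the log2 scale, at 10.5 ± 0.605 FPKM with cinobufagin and 14.4 ± 1.28 with DMSO (limma adjusted p = 0.000275). VGLL2 was at 1.02 to 1.31 FPKM with cinobufagin and 1.04 to 1.47 with DMSO and did not pass, and VGLL1 was listed at 0 in all 6 libraries. Over the list of coactivators, TEAD genes and cofactors, 2 of 9 tested genes rose, 3 fell and 4 did not pass. As shares, 22.2% rose and 33.3% fell, against 39.2% and 28.4% of all tested genes.

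**Figure D2:**
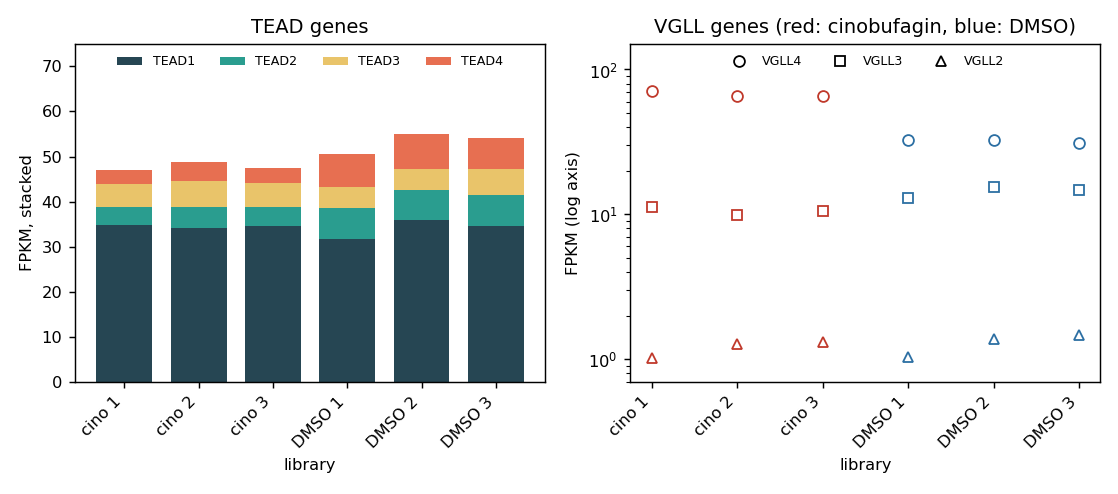
Left, stacked FPKM of TEAD1 to TEAD4 in each library. Right, FPKM (log axis) of VGLL4, VGLL3 and VGLL2, with 3 cinobufagin libraries (red) left of 3 DMSO libraries (blue). TEAD1 is level across libraries, TEAD2 and TEAD4 are smaller with cinobufagin, and VGLL4 is at 65.4 to 70.6 FPKM with cinobufagin and 31.2 to 32.5 with DMSO.

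CCN1 and CCN2 encode secreted matricellular proteins, formerly CYR61 and CTGF, and are the most used readouts of YAP activity. CCN2 (gene ID 1490, chromosome 6, 131948176 to 131951373) had 132, 125.9 and 133 FPKM in cinobufagin libraries, against 60.1, 55.9 and 57.9 in DMSO libraries. The lowest cinobufagin value was far above the highest DMSO value, and CCN2 rose by 1.15 on the log2 scale (SE 0.04, limma adjusted p = 1.35e-09), the rank of 48 among 11599 genes. CCN1 (gene ID 3491, chromosome 1, 85580761 to 85583962), the most abundant of the 10 genes, had 331, 328 and 342 FPKM in cinobufagin libraries, against 301, 287 and 294 in DMSO libraries. CCN1 values did not overlap either, but its rise was small, 1.14-fold or 0.18 on the log2 scale (SE 0.04, limma adjusted p = 0.00127). The CCN2 to CCN1 ratio of FPKM was 0.398, 0.384 and 0.388 with cinobufagin, against 0.1996, 0.195 and 0.197 with DMSO. The ratios did not overlap and differed by 0.98 on the log2 scale (exact two-sided permutation test, p = 0.1, the smallest possible here). An antisense gene in GENCODE 29 overlaps 8.34% of the exon bases of CCN2, and a same-strand gene overlaps 3.12% of those of AMOTL2 and 0.836% of those of AJUBA.

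CCN3 fell and CCN5 was lower. CCN3, which counters CCN2 in several settings, had 36.9, 36.6 and 34.5 FPKM in cinobufagin libraries, against 75.9, 76.9 and 75.5 in DMSO libraries. It fell by 1.06 on the log2 scale (SE 0.04, limma adjusted p = 2.16e-09). CCN5, a member without the C-terminal domain, was at 0.473 ± 0.0404 FPKM with cinobufagin and 2.35 ± 0.281 with DMSO (SD, n = 3 each). It passed the filter on low values only through the DMSO libraries, so its values are given as a description. CCN4 and CCN6 were at or under 0.10 FPKM and were not tested.

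ANKRD1 (gene ID 27063, chromosome 10, 90912096 to 90921276) encodes a muscle ankyrin repeat protein that responds to stretch. It had 69.5, 71.9 and 74.0 FPKM in cinobufagin libraries, against 88.9, 99.1 and 100.9 in DMSO libraries. The groups did not overlap, and ANKRD1 fell by 0.42 on the log2 scale (1.34-fold lower, SE 0.05, limma adjusted p = 2.25e-05). NUAK2 (gene ID 81788, chromosome 1, 205302059 to 205321791) encodes an AMPK-related kinase that promotes YAP activity. It was the least abundant of the 10 genes, with 1.74, 1.75 and 2.04 FPKM in cinobufagin libraries, against 6.16, 5.78 and 6.34 in DMSO libraries. The groups lay well apart, and NUAK2 fell by 1.32 on the log2 scale of FPKM + 1 (SE 0.08, limma adjusted p = 3.8e-08). With a pseudocount of 0.1 the log2 fold change of NUAK2 was -1.67.

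The remaining target genes act back on the Hippo cascade. AJUBA (gene ID 84962, chromosome 14, 22971174 to 22982642) encodes a LIM protein that binds and holds LATS kinases at junctions. It had 39.5, 38.6 and 41.2 FPKM in cinobufagin libraries, against 63.7, 60.6 and 64.1 in DMSO libraries. AJUBA values did not overlap, and it fell by 0.65 on the log2 scale (1.58-fold lower, SE 0.04, limma adjusted p = 1.69e-07). AMOTL2 (gene ID 51421, chromosome 3, 134355874 to 134375479) encodes an angiomotin that retains YAP at junctions and on actin. It had 100.8, 106.9 and 109 FPKM in cinobufagin libraries, against 116.9, 113.7 and 114.3 in DMSO libraries. The groups did not overlap but lay close, and AMOTL2 fell by 0.12 on the log2 scale (SE 0.04, limma adjusted p = 0.0205). That call was lost without the mean-variance trend (limma adjusted p = 0.059) and without cinobufagin replicate 1 (limma adjusted p = 0.0848), the ends of its range over alternatives being 0.00517 and 0.0848. LATS2 (gene ID 26524, chromosome 13, 20973032 to 21061547), the kinase that phosphorylates YAP and TAZ, had 9.42, 10.1 and 9.99 FPKM in cinobufagin libraries, against 9.56, 9.59 and 9.52 in DMSO libraries. It did not pass (log2 fold change 0.04, 95% interval -0.08 to 0.16, limma adjusted p = 0.563), and neither did its paralog LATS1, at 6.90 ± 0.411 FPKM with cinobufagin and 7.10 ± 0.243 with DMSO (SD, n = 3 each, limma adjusted p = 0.634).

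**Figure D3:**
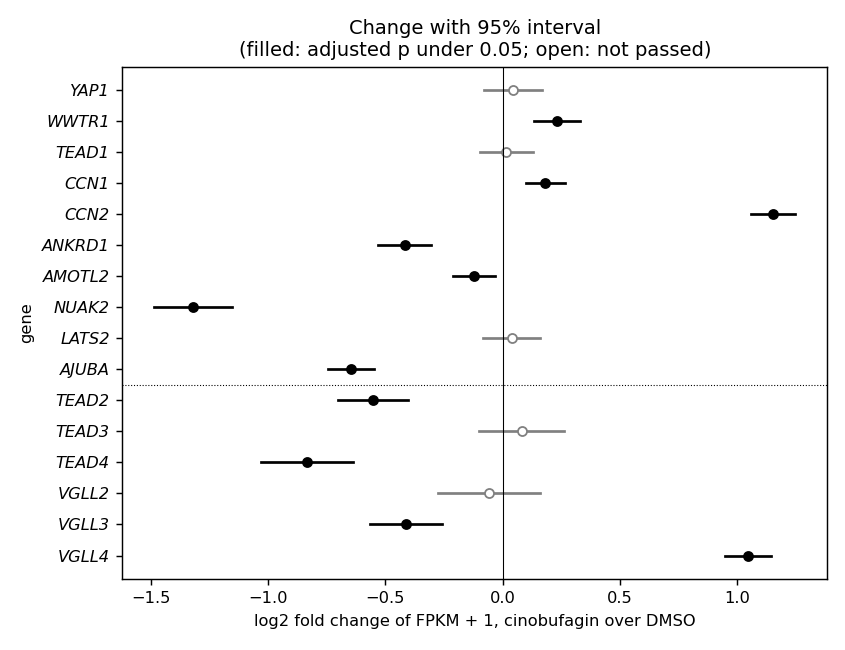
Log2 fold change of FPKM + 1, cinobufagin over DMSO, with its 95% interval, for the 10 genes (above the dotted line) and the other TEAD and VGLL genes tested. CCN2 and VGLL4 lie above 1, NUAK2 lies at -1.32, and the intervals of YAP1, TEAD1 and LATS2 include 0.

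A wider list of YAP and TEAD targets, 23 genes with the 7 targets above among them, was lower on balance. Of its genes 2 rose, CCN2 and CCN1, 18 fell and 3 did not pass, with a median log2 fold change of -0.40 beside 0.06 over all genes tested, of which 28.4% fell. Without the 7 targets, 0 of 16 rose (limma), 14 fell and 2 did not pass, and 0 of the 16 had a log2 fold change above 0. The list was chosen with earlier results of these data known, so these counts are a description. The coagulation starter F3 had 70.1, 69.5 and 70.0 FPKM in cinobufagin libraries, against 315, 331 and 322 in DMSO libraries. Its fall was the largest of the 23 genes, at -2.19 on the log2 scale (SE 0.04, limma adjusted p = 3.06e-12). TGFB2, a TGF-beta ligand, fell by 1.13, at 41.3 ± 0.745 FPKM with cinobufagin and 91.4 ± 4.99 with DMSO (SD, n = 3 each). IGFBP3, a binding protein of insulin-like growth factors, fell by 1.01, at 21.9 ± 1.15 FPKM with cinobufagin and 45.2 ± 4.36 with DMSO. PTPN14, a phosphatase that binds YAP, did not pass, at 11.2 ± 0.280 FPKM with cinobufagin and 11.6 ± 0.370 with DMSO.

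**Figure D4:**
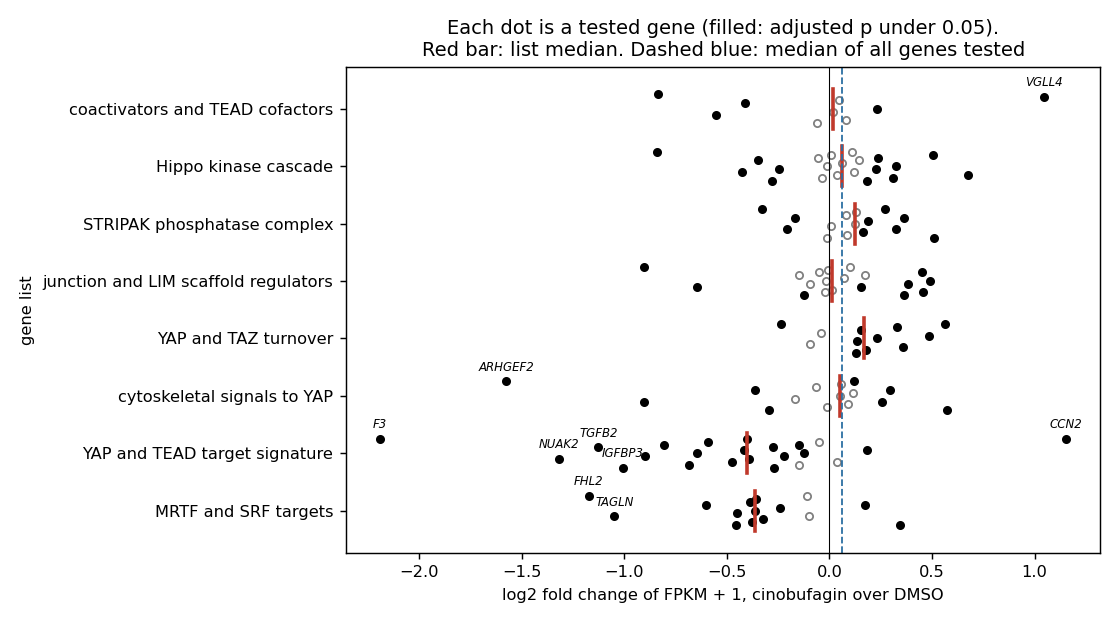
Log2 fold change of FPKM + 1, cinobufagin over DMSO, for each tested gene of 8 lists, filled where the adjusted p was under 0.05, with a red bar at the list median and a dashed line at 0.06, the median of all genes tested. The medians of the target list (-0.40) and of the MRTF and SRF list (-0.36) lie left of the others.

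Genes of the Hippo kinase cascade and its activators were called no more often than tested genes in general. Of the 21 tested, 7 rose (33.3%, against 39.2% of all tested genes), 5 fell (23.8%, against 28.4%) and 9 missed the threshold, with a median change of 0.06 on the log2 scale. WWC1, the scaffold KIBRA that activates LATS, had 20.5, 21.0 and 21.9 FPKM in cinobufagin libraries, against 38.6, 38.4 and 38.9 in DMSO libraries, and fell by 0.84 on the log2 scale (SE 0.04, limma adjusted p = 2.25e-08). Its relative WWC3 rose by 0.50, at 9.99 ± 0.782 FPKM with cinobufagin and 6.75 ± 0.459 with DMSO (SD, n = 3 each). NF2, the membrane scaffold merlin, fell by 0.42, and the kinase MAP4K5 fell by 0.35, while TAOK2, a kinase upstream of MST1 and MST2, rose by 0.68 on the log2 scale. The LATS cofactor MOB1A and the kinase TNIK did not pass (limma adjusted p = 0.917 and 0.871).

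Of 15 genes of STRIPAK, the phosphatase complex that restrains the MST kinases, 6 rose, 3 fell and 6 did not pass. Thus 40% rose and 20% fell, against 39.2% and 28.4% of all tested genes. The median change was 0.13 on the log2 scale, beside 0.06 over all genes tested. PPP2R1A, the scaffold subunit of the phosphatase, rose by 0.51, at 65.0 ± 2.46 FPKM with cinobufagin and 45.4 ± 0.524 with DMSO (SD, n = 3 each, limma adjusted p = 8.85e-07). PPP2R1B rose by 0.27 and STRN by 0.33, and STRIP2 fell by 0.33 on the log2 scale. PDCD10 and CTTNBP2NL did not pass (limma adjusted p = 0.101 and 0.206).

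Among 19 junction and LIM scaffold regulators tested, 6 rose, 3 fell and 10 did not pass. These shares, 31.6% higher and 15.8% lower, were below the 39.2% and 28.4% of all tested genes. The median change was 0.01 on the log2 scale, beside 0.06 over all genes tested. RASSF1, an adaptor of the MST kinases, had the largest change of the list, with 5.80, 5.50 and 6.37 FPKM in cinobufagin libraries, against 12.0, 11.5 and 12.1 in DMSO libraries. It fell by 0.90 on the log2 scale (SE 0.06, limma adjusted p = 2.46e-07). AMOT, another angiomotin gene, rose by 0.46, at 2.89 ± 0.0265 FPKM with cinobufagin and 1.84 ± 0.0493 with DMSO (SD, n = 3 each). The giant cadherin FAT4 rose by 0.49 and the polarity gene PARD3 by 0.45. CTNNA1, alpha-catenin, and the cadherin FAT1 did not pass (limma adjusted p = 0.135 and 0.162). Without cinobufagin replicate 3 FAT1 passed (limma adjusted p = 0.0338, and between 0.0338 and 0.579 over alternatives).

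Of the genes for the turnover of YAP and TAZ more rose than fell, as was also so over all tested genes. Of the 12 tested, 9 rose, 1 fell and 2 missed the threshold. Thus 75% rose and 8.33% fell, against 39.2% and 28.4% of all tested genes. The median change was 0.17 on the log2 scale, beside 0.06 over all genes tested. The number that rose was 6 after median centring and without cinobufagin replicate 3, and 7 to 9 under the other alternatives. BTRC, the F-box protein that recognises phosphorylated YAP and TAZ, had 9.46, 9.48 and 10.2 FPKM in cinobufagin libraries, against 6.34, 6.74 and 5.66 in DMSO libraries, and rose by 0.56 on the log2 scale (SE 0.07, limma adjusted p = 2.25e-05). CSNK1D, the casein kinase that completes the degradation signal after LATS, rose by 0.48, at 79.4 ± 1.80 FPKM with cinobufagin and 56.5 ± 2.70 with DMSO (SD, n = 3 each). The ligase subunits SKP1 and RBX1 rose by 0.36 and 0.33. The member that fell was the ligase gene NEDD4, by 0.24 on the log2 scale (limma adjusted p = 0.0125), a call lost without DMSO replicate 3 (limma adjusted p = 0.0512, and between 0.0015 and 0.0512 over alternatives). CSNK1E, at 34.95 ± 1.399 FPKM with cinobufagin and 37.3 ± 1.14 with DMSO, and FBXW11, at 26.0 ± 0.356 FPKM with cinobufagin and 26.8 ± 0.775 with DMSO, did not pass.

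Of 15 tested genes that relay cytoskeletal signals to YAP, 4 rose, 4 fell and 7 did not pass, with a median change of 0.05 on the log2 scale. ARHGEF2, a microtubule-bound activator of RhoA, had 13.3, 14.0 and 14.8 FPKM in cinobufagin libraries, against 44.9, 42.5 and 43.8 in DMSO libraries. It was 3.12-fold lower and fell by 1.57 on the log2 scale (SE 0.05, limma adjusted p = 5.02e-10). RHOA itself fell by 0.36, at 344 ± 6.81 FPKM with cinobufagin and 442 ± 8.495 with DMSO, and the kinase SRC fell by 0.91. The formin DIAPH1 rose by 0.57 and the G protein gene GNA12 by 0.30. ARHGAP29 and GNA13 did not pass (limma adjusted p = 0.195 and 0.0728), but ARHGAP29 did without DMSO replicate 1, after quantile normalization and after median centring (0.0476, 0.0467 and 0.0462, and between 0.0462 and 0.447 over alternatives) and GNA13 without DMSO replicate 2 (0.0474, and between 0.0474 and 0.244).

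MRTF and SRF control an actin-linked program that shares targets with YAP and TEAD. Of 15 genes of this list tested, 2 rose (13.3%, against 39.2% of all tested genes), 11 fell (73.3%, against 28.4%) and 2 did not pass. The median change was -0.36 on the log2 scale, beside 0.06 over all genes tested. The 2 that rose were the cofactor genes MRTFA and MRTFB, while SRF itself fell by 0.36 (limma adjusted p = 8.33e-05). FHL2, a LIM protein induced by SRF, fell by 1.17 on the log2 scale, at 35.1 ± 0.544 FPKM with cinobufagin and 80.5 ± 3.03 with DMSO (SD, n = 3 each, limma adjusted p = 1.25e-09). TAGLN, an actin-binding smooth muscle protein, fell by 1.05, beta-actin, ACTB, fell by 0.60, and the myosin light chain gene MYL9 and vinculin, VCL, each fell by 0.45 on the log2 scale. ZYX and ACTA2 did not pass (limma adjusted p = 0.156 and 0.0897), but ZYX did without cinobufagin replicate 2 or DMSO replicate 2 (0.039 and 0.0404, and between 0.039 and 0.441 over alternatives) and ACTA2 without cinobufagin replicate 3, after quantile normalization and after median centring (0.0186, 0.0336 and 0.0237, and between 0.0186 and 0.266). Reads of ACTB, ACTG1 and their pseudogenes are hard to separate. The count of risers in this list was 1 after median centring, with the replicate block, and without cinobufagin replicate 2 or 3 or DMSO replicate 2 or 3.

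The genes nearest in profile to CCN2 over the 6 libraries, by the root mean square difference of log2 values after removing each gene's mean, were SH3BP5 (0.034), CCDC28A (0.0464) and ABHD2 (0.047). SH3BP5 was at 22.6 FPKM with cinobufagin and 10.1 with DMSO. Near NUAK2 by the same measure were CA9 (0.0384) and PVR (0.0385), of which PVR was at 14.7 FPKM with cinobufagin and 38.8 with DMSO. These are nearest profiles over 2 groups of 3 libraries, given as a description.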

How the data were processed

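RNA of 6 libraries of ARPE-19 cells, 3 with cinobufagin and 3 with DMSO, was compared. The authors deposited FPKM per gene to 2 decimals, per the file headers. Bowtie2, RSEM 1.3.1, DESeq2 1.4.5 and the build GRCh38.p13 are named in the submitters' processing notes, without roles. The selection of RNA and the strand setting are given by no source used here. Control columns are named mock and were matched by number to the DMSO libraries, the only control group. A further 19 entries lacked a gene ID and were left out, and Entrez IDs were named by RefSeq (GRCh38.p14) for 17881 of 17945 genes. Gene positions and exon overlaps came from GENCODE 29 on GRCh38. The depth is unknown: in 1778 low genes, ratios near 2, 3 and 4 (within 3%) were seen 467, 205 and 116 times, against 305, 174 and 109.5 beside them, and whole reads were not recovered, so no count model was used. FPKM depends on the mapped total, so abundant genes that change shift all others. Identical pairs of libraries numbered 0.

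The 11599 genes that reached 1 FPKM in 3 or more libraries were fitted as log2(FPKM + 1) with limma 3.58.1 (mean-variance trend) in R 4.3.3, cinobufagin minus DMSO, without a block. Adjustment was by Benjamini-Hochberg across the whole table, and an adjusted p under 0.05 was called. Ratios and shares were compared by exact permutation (scipy 1.17.1). The pipeline was tested on simulated data. The 10 genes and all lists were chosen with earlier results of these data known. Lists are described by counts and medians. The text names the 10 genes, of each list up to 5 called genes with the largest change and up to 2 not called with the highest mean, the measured TEAD, VGLL and CCN genes, LATS1, and the 3 nearest profiles of the members with the largest rise and fall. KRT8, KRT18, OTX2, PAX6, MITF and the other cell type markers were named as markers, and MRTFA, MRTFB and SRF after their values were seen. Some genes that the rule takes are left out of the text and are not reported here. As alternatives, the trend was dropped, values were quantile normalized or median centred, the filter was dropped or set to 5 FPKM, and the fit was repeated with a pseudocount of 0.1, the replicate number as a block, and leaving out each library in turn. Plots were made in Python 3.11.15 (matplotlib 3.10.9).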

Additional observations from a re-analysis of the deposited data

How the results depend on the processing

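Of 130 log2 fold changes of the 10 genes under alternatives, 122 kept their direction and their side of the threshold. WWTR1, CCN1, CCN2, ANKRD1, NUAK2 and AJUBA did so in all 13 alternatives run. The filter of 5 FPKM kept NUAK2 only through its DMSO libraries (5.78 to 6.34 FPKM, against 1.74 to 2.04 with cinobufagin). Its result under that filter is therefore only a description. The exceptions were AMOTL2 and the 3 genes that did not pass. AMOTL2 missed the threshold without the trend (-0.12) and had values from -0.146 to -0.0898 with a library left out. The sign of TEAD1 turned after quantile normalization (-0.0271) and median centring (-0.0261), and ranged from -0.0326 to 0.0547 with a library left out. LATS2 turned to -0.0026 after quantile normalization and -0.004 after median centring, and YAP1 ranged from -0.007 to 0.1008 with a library left out. None of these 3 genes passed under any alternative run. Among uncalled genes of the lists, MOB1A turned to -0.0415 after quantile normalization and -0.0345 after median centring and ranged from -0.0606 to 0.0663 with a library left out, VGLL2 turned to 0.017 after quantile normalization and ranged from -0.1428 to 0.0006, LATS1 ranged from -0.0723 to 0.0027 and TNIK from -0.0439 to 0.012. The count of turnover genes that fell was 2 after quantile normalization and 2 after median centring, and 0 to 1 with a library left out. The count of CCN genes that fell was 1 with the filter of 5 FPKM, under which CCN5 was not tested. The count of MRTF and SRF list genes that rose was 1 after median centring, 1 with the replicate block and 1 to 2 with a library left out. CSNK1E, ACTA2 and ARHGAP29 passed after quantile normalization and after median centring, and CTNNA1 after quantile normalization. Except where stated, the cause was not tested. The replicate number did not pair the libraries: deviations of same-numbered libraries correlated at -0.049, -0.105 and -0.00906 across genes. No library correlated best with its own number. With the replicate block 4454 genes rose and 3236 fell, against 4552 and 3297 without it. The 3 ratios and shares kept their direction with each library left out, where the smallest p possible was 0.2. Between 4137 and 4438 genes rose and between 3065 and 3297 fell with a library left out. With unknown depth, counting error of low genes such as NUAK2 and CCN5 cannot be given.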
